A study of Mus musculus with 6 samples.

Results

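The genes described here break down heme, reduce quinones, and store or move iron: *Hmox1*, *Blvra* and *Blvrb* (heme breakdown), *Fech* (heme synthesis), *Fth1* and *Ftl1* (ferritin), *Slc40a1* and *Tfrc* (iron export and uptake) and *Nqo1* (quinone reduction). They were taken by symbol, and 9 of 9 were found among the 17193 genes listed in each library. Expression was measured by RNA sequencing of poly(A) RNA in astrocytes captured from mouse brain with microbeads against ACSA-2, a surface antigen of astrocytes encoded by *Atp1b2*. All mice were wild type C57BL/6 animals aged 3 months, and they had received either a control treatment (Mock, 3 libraries) or quinpirole, an agonist of the dopamine D2 receptor (Quinpirole, 3 libraries). No group carried a transgene or a deletion. The study used the comparison to look for genes that respond in astrocytes when this receptor is stimulated. The labels of these libraries give neither the dose nor the duration of quinpirole, and they do not say whether each library came from a separate mouse, so the p-values below measure only the spread between these libraries.

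Heme oxygenase opens the heme ring and releases iron, carbon monoxide and biliverdin, which biliverdin reductase turns into bilirubin. The freed iron is held inside shells of ferritin heavy and light chains, or leaves the cell through ferroportin, while transferrin receptor 1 brings iron in. *Hmox1*, *Nqo1* and the ferritin genes are known targets of Nrf2, a transcription factor of the antioxidant response, and the ferritin, ferroportin and transferrin receptor messages are also controlled through iron-responsive elements, short hairpins bound by iron regulatory proteins.

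In the deposited values, RNA of the captured cells held more *Nqo1* and more *Ftl1* after quinpirole. *Nqo1* rose by 0.35 and *Ftl1* by 0.31 on the log2 scale, and the changes of the other 7 genes did not pass the test. Of the 9 genes, 2 were higher and 0 were lower at an adjusted p under 0.05 (limma, Benjamini-Hochberg), where 10.9% of all 12255 tested genes passed in either direction, 5.74% of them upward and 5.18% downward. All 9 differences were positive in the deposited values, as were 6593 of the 12255 tested, with a median of 0.141 beside 0.015 over all tested genes, but *Fth1* turned to -0.05 under quantile normalization and *Blvrb* to -0.03 under a length correction based on coding transcripts. In 5 of the 9 genes (*Hmox1*, *Nqo1*, *Fth1*, *Ftl1* and *Fech*) every Quinpirole library lay above every Mock library, a separation that 20.0% of all tested genes showed in this direction, 16.9% in the other and 36.9% in either. Both calls were kept when Mock library 3 was left out and lost when any other single library was left out, as given below for each gene.

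The ferritin, ferroportin and transferrin receptor transcripts share a sequence feature, the iron-responsive element, which is shown because it sets these 4 genes apart from the other 5 on sequence alone. The annotated coding transcripts (GENCODE M21, GRCm38) were searched for the loop CAGTGN closed by 5 base pairs, G with T pairs allowed, with an unpaired C before the stem. Lower case letters are the stem and its flanks, and capitals mark the loop.

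*Fth1*, 5′ UTR, chr19:9982733-9982759, plus strand: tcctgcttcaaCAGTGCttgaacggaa
*Ftl1*, 5′ UTR, chr7:45459780-45459806, minus strand: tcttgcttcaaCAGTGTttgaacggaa
*Slc40a1*, 5′ UTR, chr1:45925466-45925492, minus strand: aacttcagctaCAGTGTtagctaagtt
*Tfrc*, 3′ UTR, chr16:32631220-32631246, plus strand: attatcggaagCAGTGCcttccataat
*Tfrc*, 3′ UTR, chr16:32631599-32631625, plus strand: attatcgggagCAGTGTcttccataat
*Tfrc*, 3′ UTR, chr16:32631664-32631690, plus strand: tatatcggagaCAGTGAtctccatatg
*Tfrc*, 3′ UTR, chr16:32631711-32631737, plus strand: attatcgggaaCAGTGTttcccataat

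Among 16836 coding transcripts searched, 1 per gene, 227 (1.35%) held at least 1 such match and 17 (0.101%) held it in the 5′ UTR. *Tfrc* alone held 4 or more in the 3′ UTR, a cut equal to the number found in *Tfrc* itself. No match was found in the transcripts of *Hmox1*, *Nqo1*, *Blvra*, *Blvrb* or *Fech*, which says only that these letters are not in them.

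The antioxidant response element was looked for as TGACNNNGC and as the longer form in which A follows those letters, on both strands of the short promoter windows around gene starts in the RefSeq table (GRCm38.p6). The table held *Nqo1*, *Blvra*, *Blvrb*, *Fth1*, *Ftl1* and *Tfrc*, and *Hmox1*, *Slc40a1* and *Fech* had no entry in it. The match is shown because it was the only one among these promoters, with the longer motif, read on the minus strand, in capitals.

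*Blvra*, promoter, chr2:127070597-127070626, plus strand: tcacgggaatTGCTCGGTCAaggctccgcc

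Of 32851 promoters in that table, 999 (3.04%) held the longer motif and 4071 (12.4%) the shorter. The window of *Nqo1* held neither, which says only that these letters are not in this window.

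Depth was estimated from the steps between the lowest values, at 22400000 to 27500000 fragments per library, because the tables hold no counts. Steps that fit 2 times this depth also occurred in every library, and the range searched left those depths out. The fragment numbers, counting errors and chi-square values below rest on that choice. The summed FPKM of a library (fragments per kilobase of transcript, scaled to the mapped fragments of the library) was 401769 to 413730 in Mock and 425244 to 437164 in Quinpirole. Any 2 libraries of a group differed by more than sampling noise, with a median chi-square of 2.33 to 3.75 times the chance value over 680 genes. The astrocyte markers summed to 1430 to 1600 FPKM in Mock and 1440 to 1460 in Quinpirole. Of 9, 2 were lower after quinpirole (*Atp1b2*, the capture antigen, and *Slc1a2*), beside 5.18% of all tested genes. Microglial markers were also present, at a sum of 862 to 928 in Mock and 916 to 1010 in Quinpirole. Of 10, 1 was higher and 0 lower, beside 5.74% and 5.18% of all tested genes. In 3 of 10 every Quinpirole library lay above every Mock library and in 3 below, beside 20.0% and 16.9% of all tested genes. Neuronal markers summed to 72.7 to 78.4 in Mock and 84.6 to 91.3 in Quinpirole, mostly through *Stmn2*. Of the 3 tested, 1 was higher, beside 5.74% of all tested genes, and 2 separated the groups upward, beside 20.0%. *Rbfox3* and *Snap25* were below 0.1 FPKM in every library. Endothelial markers summed to 7.89 to 8.24 in Mock and 6.39 to 7.56 in Quinpirole. In the 2 tested (*Flt1* and *Kdr*) every Quinpirole library lay below every Mock library, beside 16.9% of all tested genes. Macrophage markers summed to 12.5 to 14.6 and 14.2 to 17.4, and oligodendrocyte markers, mostly *Cnp*, to 156 to 176 and 163 to 173. In the endothelial, macrophage and oligodendrocyte lists 0 genes were called. *Alas2*, a gene of red blood cells, was near 0 in every library. In bulk RNA, fewer cells of a type and less RNA per cell cannot be told apart, and the part of other cells in the results below was not tested.

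**Figure D1:**
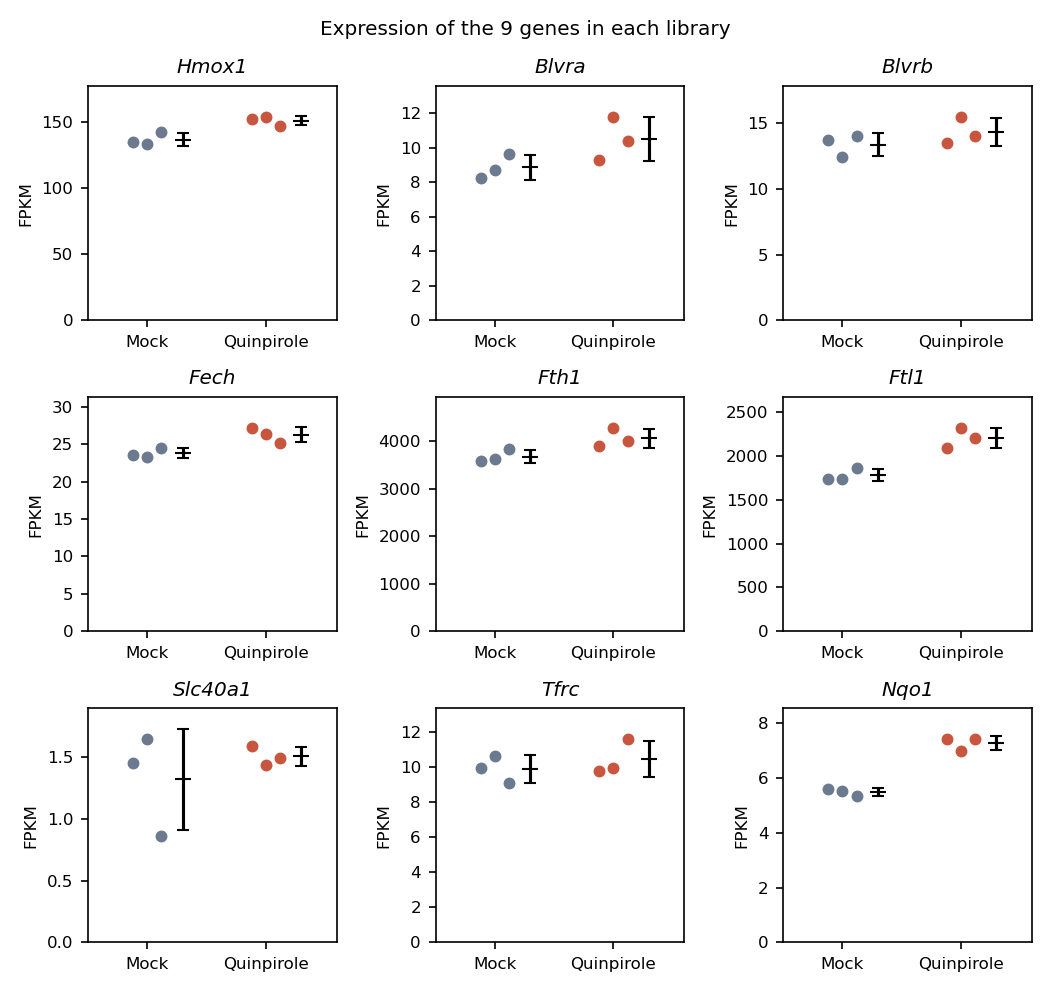
FPKM of each of the 9 genes in the 3 Mock and the 3 Quinpirole libraries, on a linear axis from 0, with points for libraries in the order of their numbers and a bar for the mean ± SD beside them. *Nqo1* and *Ftl1* separate by the widest margins relative to their means, whereas the groups overlap for *Slc40a1*, in which Mock library 3, at 0.858 FPKM, lies below all the others.

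*Hmox1* (chr8:75093621-75100589, plus strand) encodes heme oxygenase 1, the inducible enzyme that opens the heme ring. Its FPKM was 135, 133 and 142 in the Mock libraries and 152, 154 and 147 in the Quinpirole libraries. Every Quinpirole library lay above every Mock library, with a gap smaller than the range of either group. The means were 137 ± 4.7 and 151 ± 3.85 (SD, n = 3 each), a difference of 10.3% or 0.14 on the log2 scale (SE 0.04, 95% interval 0.05 to 0.23), and the adjusted p was 0.06. The difference passed the test, at an adjusted p of 0.0474, only when Mock library 3 was left out among the alternatives run, and it shrank to 0.04 (adjusted p = 0.42) when values were corrected for transcript length and to 0.04 (adjusted p = 0.437) under quantile normalization.

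The constitutive enzyme, *Hmox2*, was expressed at lower FPKM than *Hmox1* in every library. Its values were 19.7, 23.6 and 15.1 in Mock and 17.8, 26.1 and 24.5 in Quinpirole, so that the groups overlapped (log2 difference 0.22, adjusted p = 0.444), and the difference ran from 0.06 without Mock library 3 to 0.38 without Quinpirole library 1. The ratio of *Hmox1* to *Hmox2* within a library was 6.85, 5.64 and 9.43 in Mock and 8.58, 5.9 and 5.98 in Quinpirole. This ratio differed by less than the spread between libraries (log2 difference -0.09, two-sided exact permutation p = 0.7, the smallest possible being 0.1), and the difference turned to 0.11 without Mock library 3.

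*Blvra* (chr2:127070665-127097084, plus strand) and *Blvrb* (chr7:27447978-27466144, plus strand) encode the biliverdin reductases, the first acting on the biliverdin that heme oxygenase makes and the second also reducing flavins. *Blvra* measured 8.24, 8.68 and 9.64 FPKM in Mock and 9.27, 11.8 and 10.4 in Quinpirole. *Blvrb* measured 13.7, 12.4 and 14 FPKM in Mock and 13.5, 15.5 and 14 in Quinpirole. For both genes the groups overlapped. The log2 difference was 0.22 for *Blvra* (95% interval 0.005 to 0.43, adjusted p = 0.153) and 0.09 for *Blvrb* (95% interval -0.07 to 0.25, adjusted p = 0.394). With a library left out, *Blvra* ran from 0.14 (without Quinpirole library 2) to 0.30 (without Quinpirole library 1) and *Blvrb* from 0.04 to 0.13 (without the same libraries). The ratio of *Blvrb* to *Blvra* was 1.66, 1.43 and 1.45 in Mock and 1.46, 1.31 and 1.34 in Quinpirole, so that the groups overlapped. The log2 difference was -0.14 (SD 0.12 in Mock and 0.08 in Quinpirole, exact permutation p = 0.3). It came to -0.075 without Mock library 1.

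*Fth1* (chr19:9980598-9985098, plus strand) and *Ftl1* (chr7:45457944-45459884, minus strand) encode the ferritin heavy chain, which oxidizes iron as it enters the shell, and the light chain, which helps the iron core to form. They were among the most abundant transcripts, at ranks 4 and 16 of the 17193 genes by mean FPKM. *Fth1* measured 3580, 3620 and 3840 FPKM in Mock and 3910, 4290 and 4000 in Quinpirole. *Ftl1* measured 1740, 1740 and 1860 FPKM in Mock and 2090, 2320 and 2200 in Quinpirole. Both genes separated the groups, narrowly for *Fth1*, whose highest Mock and lowest Quinpirole values were close, and by a wider gap for *Ftl1*.

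The mean of *Ftl1* went from 1780 ± 72.9 to 2200 ± 115 FPKM (SD, n = 3 each), 23.6% higher, and the log2 change was 0.31 (SE 0.06, 95% interval 0.18 to 0.43, adjusted p = 0.0251). The mean of *Fth1* was 3680 ± 138 and 4070 ± 197 FPKM, a log2 difference of 0.14 (SE 0.06, 95% interval 0.02 to 0.27, adjusted p = 0.126) that did not pass. Together the 2 chains took 1.32%, 1.33% and 1.38% of the summed FPKM in Mock and 1.41%, 1.51% and 1.46% in Quinpirole. The call of *Ftl1* was kept without Mock library 3 (adjusted p = 0.0287) and lost without Mock library 1 (0.078), Mock library 2 (0.0989), Quinpirole library 1 (0.0583), Quinpirole library 2 (0.0799) or Quinpirole library 3 (0.0576), with log2 changes of 0.27 to 0.34. It held after correction for transcript length (0.19, adjusted p = 0.0374) but not under quantile normalization (0.09, adjusted p = 0.135), under which *Fth1* was at -0.05 (adjusted p = 0.264).

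The assignment of reads to *Ftl1* is uncertain, because 78.9% of the words of 50 bases in its coding transcript also occur in transcripts of 15 other genes, mostly ferritin light chain pseudogenes. Of those genes 1, *Ftl1-ps1*, was listed in the tables, with 19.9, 18.8 and 22.4 FPKM in Mock and 27.6, 27.2 and 33.9 in Quinpirole. *Ftl1* also overlaps a microRNA gene on its own strand and a gene model on the opposite strand that the annotation lists as still to be tested by experiment. The share of such words was 4.0% for *Fth1*, 5.1% for *Fech* and 0.0% for the other 6 genes.

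The ratio of heavy to light chain within a library separated the groups without overlap. The ratio of *Fth1* to *Ftl1* was 2.06, 2.08 and 2.06 in Mock and 1.87, 1.85 and 1.82 in Quinpirole, so that every Quinpirole ratio lay below every Mock ratio and the gap was wider than the range of either group. On the log2 scale the mean was 1.05 ± 0.01 in Mock and 0.89 ± 0.02 in Quinpirole (SD, n = 3 each). The difference of -0.16 gave a two-sided exact permutation p of 0.1, the smallest that this test allows with 3 libraries against 3 (0.3 after Benjamini-Hochberg adjustment over the 3 ratios), so this test cannot go under 0.05. Leaving out each library in turn gave -0.15 to -0.17. After correction for transcript length the log2 differences of the genes lay closer together, at 0.097 for *Fth1* and 0.185 for *Ftl1*, and the uncertain assignment of reads to *Ftl1* bears on the ratio as well.

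**Figure D2:**
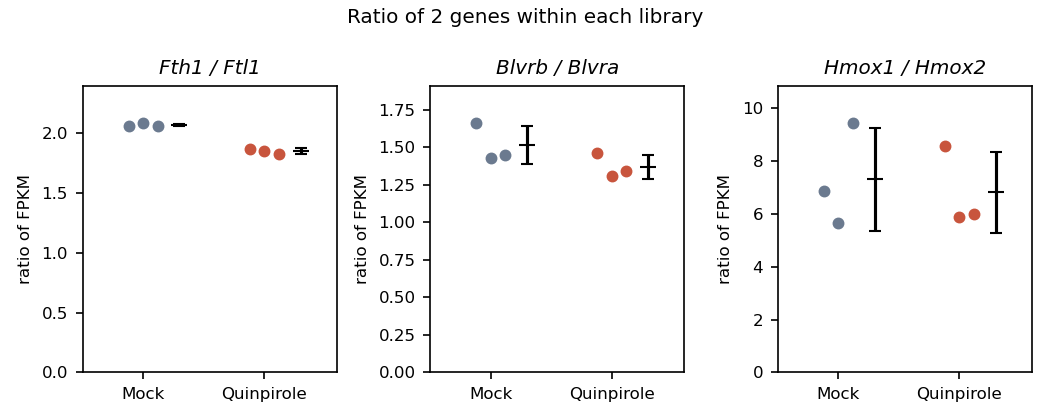
Ratio of the FPKM of 2 genes within each library, on linear axes from 0, with points for libraries and a bar for the mean ± SD. *Fth1* to *Ftl1* falls into 2 groups that do not overlap (2.06 to 2.08 in Mock, 1.82 to 1.87 in Quinpirole), whereas *Blvrb* to *Blvra* and *Hmox1* to *Hmox2* overlap between the groups.

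*Slc40a1* (chr1:45908068-45926523, minus strand) encodes ferroportin, the iron exporter, and was the least expressed of the 9 genes. It measured 1.45, 1.65 and 0.858 FPKM in Mock and 1.59, 1.44 and 1.49 in Quinpirole. The groups overlapped, and the low value of Mock library 3 set the wider spread of that group. The log2 difference was 0.13 (95% interval -0.18 to 0.44, adjusted p = 0.546), and it turned to -0.02 without Mock library 3. With the coding transcript (3370 bases) as its length, an estimated 73 to 153 fragments per library stood behind these values. Counting error alone came to 12% at the lowest on that length, and would be smaller with the whole exonic length (9000 bases). The 95% interval contained a difference of the size seen in *Nqo1*.

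*Tfrc* (chr16:32608920-32632794, plus strand) encodes transferrin receptor 1, through which cells take up iron bound to transferrin. It measured 9.93, 10.6 and 9.05 FPKM in Mock and 9.78, 9.93 and 11.6 in Quinpirole. The groups overlapped, and the highest value was that of Quinpirole library 3. The log2 difference was 0.07 (95% interval -0.12 to 0.27, adjusted p = 0.579), and it was 0 without Quinpirole library 3, 0.02 without Mock library 3 and 0.12 without Mock library 2.

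*Fech* (chr18:64452914-64490251, minus strand) encodes ferrochelatase, the last enzyme of heme synthesis, which inserts iron into protoporphyrin. It measured 23.6, 23.3 and 24.5 FPKM in Mock and 27.2, 26.3 and 25.2 in Quinpirole. Every Quinpirole library was above every Mock library. The means were 23.8 ± 0.602 and 26.2 ± 0.978 (SD, n = 3 each), and the log2 difference of 0.13 (SE 0.04, 95% interval 0.03 to 0.24) did not pass the test (adjusted p = 0.0895). *Fech* has the longest annotated exonic sequence of the 9 genes (13838 bases), and of the 3 genes whose difference became larger with the correction for transcript length it moved most, to 0.30 (adjusted p = 0.0438).

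*Nqo1* (chr8:107388225-107403206, minus strand) encodes NAD(P)H quinone dehydrogenase 1, which reduces quinones by transfer of 2 electrons. It measured 5.59, 5.54 and 5.33 FPKM in Mock and 7.44, 6.97 and 7.41 in Quinpirole. The groups did not overlap, and the gap between them was wider than the range within either. The mean was 32.6% higher after quinpirole and the log2 change of 0.35 (SE 0.06, 95% interval 0.22 to 0.48, adjusted p = 0.0236) was the largest of the 9 in the deposited values, while *Fech* was larger after correction for transcript length (0.30 against 0.24) and *Ftl1* without Mock library 3 (0.339 against 0.333) or Quinpirole library 1 (0.342 against 0.336). Some 210 to 309 fragments per library were estimated for it, a counting error of 6.9% at the lowest. The means were 5.49 ± 0.138 FPKM in Mock and 7.27 ± 0.268 in Quinpirole (SD, n = 3 each). In proportion to the means, these SDs were smaller than that counting error. The spread between these libraries may thus understate the error of *Nqo1*, and the reason was not tested.

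The call of *Nqo1* was kept without Mock library 3 (adjusted p = 0.0344) and lost without Mock library 1 (0.0725), Mock library 2 (0.091), Quinpirole library 1 (0.0617), Quinpirole library 2 (0.0652) or Quinpirole library 3 (0.0538), with log2 changes of 0.33 to 0.38. Quantile normalization kept it (0.38, adjusted p = 0.0242), and the correction for transcript length did not (0.24, adjusted p = 0.0798). The related enzyme *Nqo2*, which uses other electron donors, averaged 5.41 FPKM in Mock and 5.28 in Quinpirole (log2 difference -0.03, adjusted p = 0.816).

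**Figure D3:**
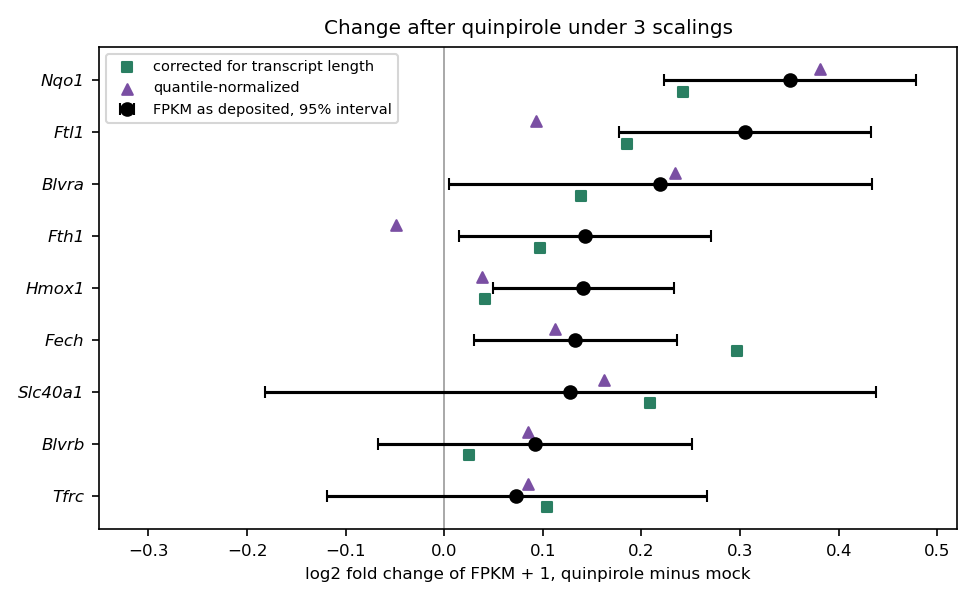
Log2 difference of FPKM + 1 between Quinpirole and Mock for the 9 genes (circles, bars for the 95% interval from limma), with the value after correction for transcript length (squares) and after quantile normalization (triangles). *Nqo1* stays between 0.24 and 0.38 in the 3 versions, *Ftl1* between 0.09 and 0.31, and *Fth1* crosses 0 to -0.05 under quantile normalization.

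By FPKM, which is per length, the 9 genes ran in the order *Fth1*, *Ftl1*, *Hmox1*, *Fech*, *Blvrb*, *Tfrc*, *Blvra*, *Nqo1* and *Slc40a1*. Only the neighbours *Tfrc* and *Blvra* overlapped over the 6 libraries. The mean of the ferritin heavy chain in Mock was 3680 FPKM and that of ferroportin 1.32 FPKM.

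Other genes were read from 8 lists of iron and heme handling, of quinone and carbonyl reduction, and of regulators of *Hmox1* and *Nqo1*. For short, all are called iron and heme genes, although the latter lists hold genes of other functions. The lists held 66 symbols, of which 61 were found and 54 were tested. Of these 54, 3 were higher (*Maff*, *Pgrmc1* and *Bola3*) and 2 lower (*Mafg* and *Flvcr1*) after quinpirole, where 10.9% of all tested genes passed in either direction. Their median log2 difference was 0.049, and 36 of 54 were positive (30 of 54 under quantile normalization), beside 6593 of the 12255 tested genes. The groups separated upward in 12 of the 54 and downward in 8, beside 20.0% and 16.9% of all tested genes.

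Of the 7 tested enzymes of heme synthesis, upstream of *Fech*, 0 passed. All 7 differences were positive (6 of 7 after either length correction), and 3 separated the groups upward, as 20.0% of all tested genes did. The median was 0.11, or 0.03 with coding transcript lengths. *Alas1*, named here for its role as the rate-limiting enzyme, measured 21.7, 21 and 20.7 FPKM in Mock and 29, 23.2 and 22.3 in Quinpirole. Its groups did not overlap, but Quinpirole library 1 stood above the others, and the log2 difference of 0.22 did not pass (adjusted p = 0.16).

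In the list of *Hmox2* and heme transport, 1 of 6 was higher and 1 lower, beside 5.74% and 5.18% of all tested genes. *Flvcr1*, which encodes a membrane carrier listed here under heme transport, fell from 9.36, 10.9 and 10.8 FPKM in Mock to 7.9, 8.77 and 7.4 in Quinpirole. The log2 change was -0.33 (SE 0.08, adjusted p = 0.0444). *Pgrmc1*, which encodes a heme-binding membrane protein, rose from 81.7, 80.7 and 85.9 to 91.1, 93.6 and 93.9 FPKM, a log2 change of 0.165 (SE 0.04, adjusted p = 0.0391). *Pgrmc1* lost the call and shrank to 0.07 (adjusted p = 0.205) after correction for transcript length and to 0.095 (adjusted p = 0.104) under quantile normalization, and *Flvcr1* lost it at -0.33 (adjusted p = 0.065) and -0.31 (adjusted p = 0.0604). In both genes the groups did not overlap, but the call of *Flvcr1* was lost without any of the 6 libraries (adjusted p = 0.073 to 0.139) and that of *Pgrmc1* without any but Mock library 3 (adjusted p = 0.0778 to 0.132).

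Of the 9 tested genes of iron uptake and export, 0 passed, 2 were positive (4 after correction for transcript length), and the median was -0.07. In 3 of the 9 (*Cp*, *Slc11a2* and *Steap4*) every Quinpirole library lay below every Mock library, beside 16.9% of all tested genes. Of the 3 genes of ferritin turnover and iron chaperones, 0 passed, and *Ncoa4*, the receptor that delivers ferritin to lysosomes, averaged 31.9 FPKM in Mock and 32.7 in Quinpirole (adjusted p = 0.767). Among the 5 tested iron sensors 0 passed. The iron regulatory proteins bind the hairpins shown above, and their genes did not pass, with *Aco1* at 31.4 and 32 FPKM (log2 difference 0.03, 95% interval -0.07 to 0.13, adjusted p = 0.66) and *Ireb2* at 8.65 and 8.71 FPKM (0.009, 95% interval -0.12 to 0.14, adjusted p = 0.925).

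Among 10 genes of mitochondrial iron and iron-sulfur clusters 1 passed, beside 10.9% of all tested genes. It was *Bola3*, which takes part in handing clusters to target proteins. It rose from 13, 12.3 and 11.9 FPKM in Mock to 14.7, 15.3 and 14.7 in Quinpirole, without overlap (log2 change 0.25, SE 0.05, adjusted p = 0.0296). The call was lost without any of the 6 libraries (adjusted p = 0.05 to 0.105), after correction for transcript length (0.195, adjusted p = 0.0697) and with coding transcript lengths (0.10, adjusted p = 0.37). Of the 8 tested genes of quinone and carbonyl reduction, the functional neighbours of *Nqo1*, 0 passed, 7 were positive (5 under quantile normalization), and 3 separated the groups upward, beside 20.0% of all tested genes.

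The regulators of *Hmox1* and *Nqo1* divided among the small Maf proteins, which pair with Nrf2 or with its competitor Bach1 on antioxidant response elements. *Mafg* fell from 23.9, 22.5 and 22.3 FPKM in Mock to 18.7, 17.1 and 17.8 in Quinpirole (log2 change -0.34, SE 0.05, adjusted p = 0.0225). *Maff* rose from 50.5, 52 and 49 to 57.2, 59.2 and 57.6 FPKM (0.20, SE 0.04, adjusted p = 0.0278), a call lost after correction for transcript length (0.12, adjusted p = 0.114) and under quantile normalization (0.15, adjusted p = 0.0647). Neither gene overlapped between the groups, and *Mafk*, shown as the remaining small Maf gene, did overlap (log2 difference -0.01, adjusted p = 0.883).

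Without Mock library 3 the calls of *Mafg* and *Maff* were kept (adjusted p = 0.0287 and 0.0466), and without any other library both were lost (adjusted p = 0.0507 to 0.0906 for *Mafg* and 0.0585 to 0.0931 for *Maff*). *Bach1*, which represses *Hmox1*, measured 5.71, 5.41 and 5.15 FPKM in Mock and 4.8, 4.52 and 4.8 in Quinpirole. Its groups did not overlap, and the log2 difference of -0.17 did not pass (adjusted p = 0.107). *Nfe2l2*, the gene of Nrf2, averaged 98.1 and 103 FPKM (0.07, adjusted p = 0.288), and *Keap1*, its inhibitor, 28.2 and 28 FPKM (-0.008, adjusted p = 0.945).

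**Figure D4:**
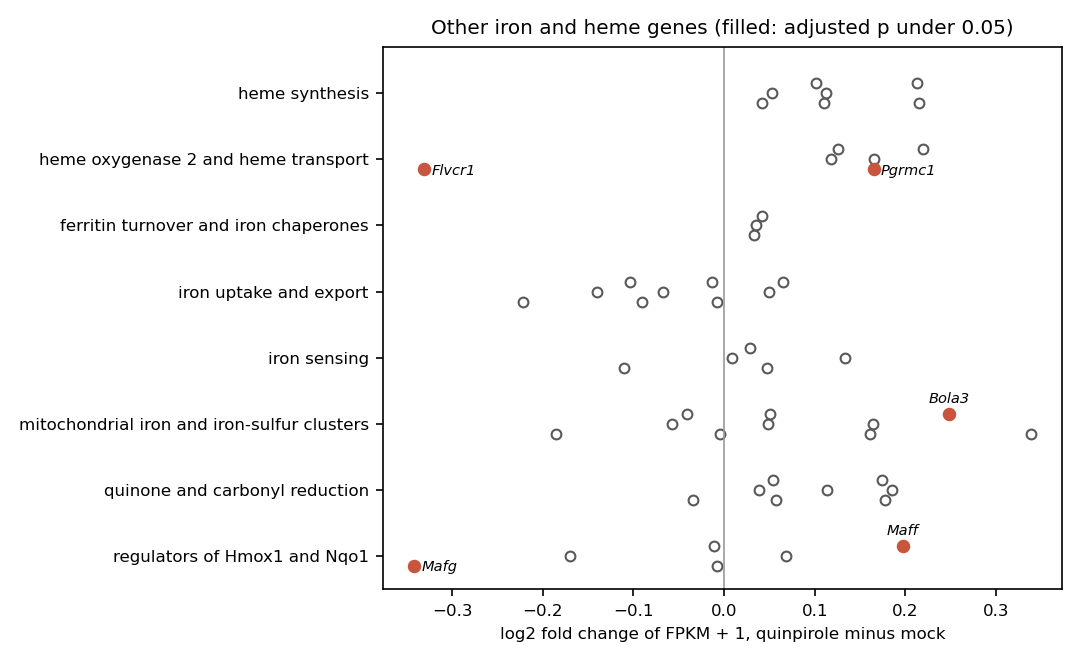
Log2 difference of FPKM + 1 between Quinpirole and Mock for the 54 tested genes of 8 lists, 1 point per gene, filled where the adjusted p was under 0.05. The lists cover iron and heme handling, quinone and carbonyl reduction, and regulators of *Hmox1* and *Nqo1*. The 5 filled genes are *Flvcr1* and *Mafg* to the left of 0 and *Pgrmc1*, *Bola3* and *Maff* to the right.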

How the data were processed

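Poly(A) RNA of 6 libraries was sequenced in paired ends, and reads were trimmed and mapped with TopHat2 to GRCm38, per the submitters' processing notes. The authors deposited 1 FPKM value per gene and library. The program that computed FPKM and the gene lengths it used are not given in the sources used here. The tables hold no counts and no columns of the authors' own comparisons. Of 17193 genes, 17090 were matched to a symbol. Tests used log2(FPKM + 1) for genes averaging 1 FPKM or more, with limma 3.58.1 in R 4.3.3 (lmFit, eBayes with trend, two-sided, Benjamini-Hochberg, threshold 0.05), without a replicate block. Fold changes are on that scale, which understates the change of low genes. Ratios were compared by exact permutation of libraries.

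Named genes were the 9 members, every other gene of the iron and heme lists past the threshold, and *Hmox2*, *Nqo2*, *Ncoa4*, *Ireb2*, *Aco1*, *Bach1*, *Nfe2l2* and *Keap1*; *Alas1* and *Mafk* were added after their values were seen. The members and lists were chosen with earlier results of these data known. Alternatives were 0.1 as the pseudocount, a mean of 5 as the minimum, all genes without a minimum, median ratio scaling, quantile normalization, eBayes without trend, a replicate block, a loess correction (span 0.3) for exonic length, and the omission of each library. A correction by the length of the coding transcript was chosen after seeing the data. Positions and transcripts came from GENCODE M21 and promoters from RefSeq (GRCm38.p6). Depth was estimated from low values, of which 54.7% to 60.2% per library lay within 0.1 of whole fragments, so it is approximate. Scripts were tested on simulated data. Python 3.11.15, pandas 2.3.3, numpy 2.4.6 and matplotlib 3.10.9 were used. *Tf* (listed as *Trf*), *Hjv* (listed as *Hfe2*), *Hamp*, *Ftmt* and *Tp53i3* were not matched by these symbols. The 66 symbols of the lists held both names of *Tf* and of *Hjv*. Some genes of the marker lists and of the nearest profiles are not reported here.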

Additional observations from a re-analysis of the deposited data

How the results depend on the processing

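The number of genes past the threshold, 1339 in the deposited values (52.6% of them higher), was 633 with no filter, 783 under quantile normalization (36.1% higher), 714 without trend, 509 with the length correction and 286 with coding transcript lengths, and 3 to 1182 when a library was left out. It was 1273 under median ratio scaling (45.6% higher). Of the 9 genes, 2 passed in the deposited values, 1 with no filter or under quantile normalization (*Nqo1*), 1 with coding transcript lengths (*Ftl1*), and 0 to 3 with a library left out. Of the other iron and heme genes, 5 passed, against 3 with no filter, 2 without trend, 1 with either length correction, and 0 to 4 with a library left out. With the replicate number as a block, 2 genes of all, 0 of the 9 and 0 of the others passed. With the block and the length correction these were 0, 0 and 0 (2723 genes at an unadjusted p under 0.05). Correlations of deviations from the group means were 0.03, -0.07 and -0.10 for libraries of the same number (mean -0.048), and averaged 0.024 for different numbers. With 3 libraries per group these cannot show whether libraries were prepared in pairs, which the labels do not say. Over all genes, the log2 difference fell with exonic length (Spearman's rho -0.475 across 12223 genes, which are not independent), and the cause was not tested. Directions turned under quantile normalization for *Fth1* (-0.049), *Ncoa4* (-0.016), *Aco1* (-0.018) and *Nfe2l2* (-0.007), under median ratio scaling for *Ireb2* (-0.003) and with coding transcript lengths for *Blvrb* (-0.034). With a library left out, values ranged from -0.024 to 0.232 for *Slc40a1*, -0.084 to 0.047 for *Nqo2*, -0.021 to 0.098 for *Ncoa4*, -0.013 to 0.039 for *Ireb2* and -0.073 to 0.031 for *Keap1*, and from -0.265 to 0.111 for the ratio of *Hmox1* to *Hmox2*. Of 351 values for 22 named genes, 261 kept direction and side of the threshold, 71 lost the call, 2 gained it and 17 turned.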

Other observations

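Among the genes whose profile over the 6 libraries lay nearest to *Nqo1* were *Hmga1b* and *Rad23b*, at Euclidean distances of 0.207 and 0.243 between z-scored log2(FPKM + 1) values, where the median over all tested genes was 3.02. *Rad23b*, which encodes a protein of nucleotide excision repair, measured 52.6, 52 and 51.9 FPKM in Mock and 57.1, 56.2 and 56.6 in Quinpirole. The genes nearest to *Hmox1* were *Sord* (sorbitol dehydrogenase), *Ost4* (a subunit of oligosaccharyltransferase) and *Cstb* (cystatin B), at 0.128, 0.15 and 0.212, against a median of 2.98. *Cstb* measured 99.2, 95.7 and 107 FPKM in Mock and 126, 129 and 116 in Quinpirole, with Quinpirole library 3 the lowest of its group, as for *Hmox1*. These genes were selected for likeness over 6 libraries, so the distances are a description with no test.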
